A study of Mus musculus with 12 samples.

Results

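The early growth response (Egr) factors Egr1, Egr2 and Egr3 and their corepressors Nab1 and Nab2 were followed in natural killer (NK) cells, cytotoxic lymphocytes that also secrete interferon gamma. The 5 genes were taken by symbol from a table of 55487 features, and all 5 passed the filter that left 12364 genes for testing. Egr proteins are zinc finger transcription factors whose genes are switched on within minutes of receptor signalling, largely through serum response factor (SRF) acting downstream of the ERK kinase cascade. Nab proteins bind Egr1, Egr2 and Egr3, recruit the nucleosome remodelling and deacetylase (NuRD) complex, and are themselves induced by Egr factors, which closes a feedback loop. In T cells, Egr2 and Egr3 are known for a part in limiting activation, and Egr2 is known for a part in the development of some innate-like lymphocytes.

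All cells came from mice of strain B6.129S4-Ifngtm3.1Lky/J labelled mut/mut, whose interferon gamma gene carries a yellow fluorescent protein (YFP) reporter, so the reference group carried the reporter too. The labels describe every sample as NK cells with "HD IL-15". The unstimulated cells formed 1 group, and cells stimulated for 6 h through NK1.1, an activating surface receptor, formed 2 groups, sorted as cells without (YFP-) or with (YFP+) reporter signal. Each group held 4 samples, labelled f2, m2, m3 and m4. The labels do not say whether samples were separate cultures or whether equal labels mark 1 mouse, so p-values measure the spread between these samples. The unstimulated label carries no time, so time in culture and stimulation cannot be told apart.

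Library totals ran from 32.1 to 54.2 M reads (M for mega), and 3 reads corresponded to 0.0553 to 0.0933 CPM, the reads of a gene relative to the library total. Ribosomal RNA-like features took 27.4 to 35.3% of reads in the unstimulated, 15.9 to 30.3% in the YFP- and 13.7 to 29.8% in the YFP+ libraries, and m3 had the highest share in both stimulated groups. All 10 NK cell markers were found in every library, and their levels differed between groups. They summed to 16200 to 20310 CPM in the unstimulated, 19870 to 23590 in the YFP- and 28500 to 39920 in the YFP+ libraries. The receptor genes Ncr1, Klrd1 and Klre1 had medians of 247, 384 and 228 CPM in unstimulated and of 125, 166 and 109 CPM in YFP+ libraries, and Klrk1 had 186 and 234 CPM. For the transcription factor genes Eomes and Tbx21 these medians were 108 and 40.7 CPM and 32.6 and 82.2 CPM, and for the granzyme gene Gzma 8618 and 4500 CPM. The granzyme gene Gzmb had 6424 and 23470 CPM. The perforin gene Prf1 had 2782 and 3881 CPM, with overlapping ranges. Klrb1c, which encodes NK1.1 itself, ranged from 290 to 327 CPM over the unstimulated, 57.6 to 86.6 CPM over the YFP- and 3.70 to 8.97 CPM over the YFP+ libraries. The 8 T cell markers summed to 198 to 283, 293 to 362 and 346 to 409 CPM in the 3 groups, of which Cd3e never passed 1.49 CPM and Cd4, Cd8a and Cd8b1 reached at most 0.193 CPM. Most of the T cell sum came from Trbc2, with medians of 158, 257 and 296 CPM, while Trac had medians of 7.21, 33.8 and 49.3 CPM, both higher in every stimulated than in every unstimulated library. Cd3g and Cd3d had medians of 40.7, 31.9 and 19.5 CPM and of 15.5, 14.7 and 10.3 CPM. The 5 B cell markers summed to 0.470 to 4.19 CPM (Pax5 at 0 in the unstimulated libraries), and the 8 myeloid markers to 1.66 to 9.97 CPM (S100a9 at 0 in every library). The 4 markers of other innate lymphoid cells summed to 37.8 to 42.8, 41.8 to 75.4 and 19.3 to 52.1 CPM, nearly all from Gata3. The part of other cells in the results below was not tested.

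The sequence before the start of 3 of the 5 genes was taken from RefSeq (GRCm38.p6), with 5 alternative starts for Egr2, 1 for Nab1 and 1 for Nab2. Egr1 and Egr3 were not searched. The 250 bases before each start were searched on both strands for the SRF-bound CArG box, for the half-site TGACG of the cyclic AMP response element (CRE), and for the EGR site GCGNGGGCG. These matched in 1.47%, 17.8% and 4.7% of 32851 such stretches across the genome. Counted by gene, over all starts of each, they matched in 1.62%, 19.8% and 5.33% of 27025 genes. The stretch shown for Egr2 covers chr10:67537739-67537868 on the plus strand and ends at the base before a start that GENCODE M21 also gives. Its capitals mark, in order, a CRE half-site, the CArG box and a second CRE half-site.

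Egr2: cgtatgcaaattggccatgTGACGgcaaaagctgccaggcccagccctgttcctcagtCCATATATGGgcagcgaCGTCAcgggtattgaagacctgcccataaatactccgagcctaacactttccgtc

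The CArG box lay 72 to 63 bases before this start. Of the 5 Egr2 windows, 4 held a CArG box, but 3 of them overlap and share the same one. For Nab1 the window held a CRE half-site at chr1:52500567-52500571 and 3 EGR sites. The EGR sites are shown because Nab genes are known to be induced by Egr factors, with 10 bases on each side, on the minus strand. They lie at chr1:52500571-52500599, chr1:52500539-52500567 and chr1:52500468-52500496, before the RefSeq start at 52500448 and within the first exon of a GENCODE M21 transcript of Nab1. Capitals mark the EGR site, which in the first of the 3 is on the opposite strand.

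Nab1 site 1: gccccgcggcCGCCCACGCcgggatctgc
Nab1 site 2: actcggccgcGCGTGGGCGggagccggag
Nab1 site 3: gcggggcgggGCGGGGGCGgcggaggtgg

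GC boxes bound by Sp1-like factors can share letters with the EGR site and were not searched. No capitals of one motif overlap those of another. The Nab2 window held none of the 3 motifs. A match describes the letters only.

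After stimulation the 3 Egr genes went different ways. Egr2 was about 24.1-fold higher in YFP- and 23.1-fold higher in YFP+ than in unstimulated cells, whereas Egr1 was lower in both. In YFP- cells the Egr1 difference did not pass an adjusted p of 0.05 in limma without the m4 library of either compared group. Stimulated cells were sampled at 6 h only, so earlier changes were not measured. Egr3 was 1.66-fold higher in YFP- cells but 6.03-fold lower in YFP+ cells than in unstimulated cells. Nab2 was 3.21-fold higher in YFP- and 2.03-fold higher in YFP+ cells, and the change of Nab1 was smaller. In YFP- against unstimulated cells, 4 of the 5 genes passed an adjusted p of 0.05 as higher and 1 as lower, where 30.2% and 20.9% of all genes did. In YFP+ against unstimulated cells, 2 of 5 were higher and 2 lower, against 27.5% and 33.3% of all genes. Between YFP+ and YFP- cells, 0 of 5 were higher (3.28% of all genes) and 2 of 5 lower (18.5%). The 3 comparisons share their samples pairwise, so they are set side by side and not as independent evidence. In bulk samples such as these, fewer cells with a transcript and less transcript per cell cannot be told apart.

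**Figure D1:**
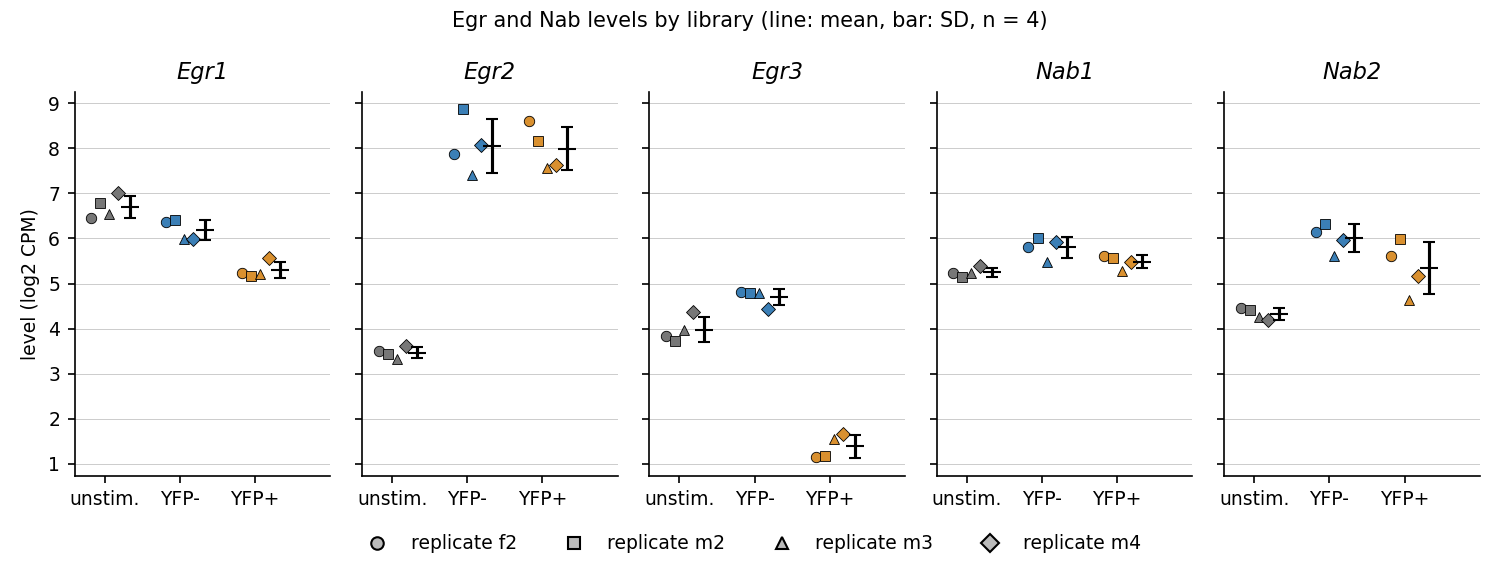
Level of each gene in log2 CPM (vertical axis) in the 4 libraries of each group (points, shaped by replicate label), with the mean and SD. Egr2 separates all 8 stimulated from the 4 unstimulated libraries, and Egr3 lies below 1.7 in the 4 YFP+ libraries and above 3.7 in all others.

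Egr2 (ENSMUSG00000037868; GRCm38 chromosome 10, 67535475 to 67542188, plus strand) encodes the factor also called Krox20. In unstimulated libraries f2, m2, m3 and m4 it was at 3.50, 3.43, 3.32 and 3.61 log2 CPM, from 395 to 432 reads. In YFP- libraries it was at 7.87, 8.86, 7.41 and 8.08, and in YFP+ libraries at 8.60, 8.17, 7.57 and 7.64 log2 CPM. All 8 stimulated libraries thus lay far above the 4 unstimulated ones, while the stimulated groups overlapped. The limma difference was 4.59 (SE 0.28, adjusted p = 4.9e-08) for YFP- and 4.53 (SE 0.28, adjusted p = 1.9e-08) for YFP+ over unstimulated cells, on the log2 scale. YFP+ less YFP- was -0.06 (95% interval -0.66 to 0.53, adjusted p = 0.9), higher in 2 of 4 label-matched pairs. That interval leaves room for a difference of up to about 0.66 in log2, so the data do not show equal levels. The SD over libraries was 0.61 in YFP-, 0.48 in YFP+ and 0.12 in unstimulated cells. The lowest Egr2 value in each stimulated group belonged to m3, the label with the highest ribosomal RNA-like share there, and the part of that share was not tested. Over all 30 alternative settings, which include totals without rRNA-like features and each library left out, the differences ran from 4.31 to 4.81 for YFP- and from 4.33 to 4.70 for YFP+ cells.

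Egr1 (ENSMUSG00000038418; chromosome 18, 34859823 to 34864984, plus strand) encodes the most widely studied immediate-early factor of the family. It was at 6.45, 6.79, 6.54 and 7.0 log2 CPM in unstimulated libraries in the order f2, m2, m3, m4. The YFP- libraries gave 6.36, 6.42, 6.00 and 5.99, and the YFP+ libraries 5.24, 5.17, 5.22 and 5.57 log2 CPM. The YFP+ values lay below all others without overlap, and the YFP- values lay just below the unstimulated ones, with a gap between f2 unstimulated and m2 YFP- that was small beside the spread within either group. Egr1 fell by 1.40 (SE 0.16, adjusted p = 4.3e-06) in YFP+ against unstimulated and by 0.89 (adjusted p = 0.0012) in YFP+ against YFP- cells. The YFP- difference of -0.50 (adjusted p = 0.017) rested on m4. It was -0.40 (adjusted p = 0.058) without unstimulated m4, -0.44 (adjusted p = 0.053) without YFP- m4 and -0.33 (adjusted p = 0.13) without both and YFP+ m4. Over all 30 alternatives its adjusted p ran from 0.0016 to 0.13.

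Egr3 (ENSMUSG00000033730; chromosome 14, 70077203 to 70082614, plus strand) encodes the relative that overlaps Egr2 in function in lymphocytes. In unstimulated libraries it was at 3.84, 3.73, 3.97 and 4.36 log2 CPM. The YFP- libraries gave 4.81, 4.79, 4.78 and 4.43, and the YFP+ libraries 1.15, 1.17, 1.56 and 1.66 log2 CPM. The YFP+ group lay below both others by more than 2 log2 units, and the YFP- group lay above the unstimulated group by a narrow margin between the 2 m4 libraries. The reads behind these values numbered 505 to 667, 1055 to 1366 and 101 to 121 per library, so the YFP+ level was well above the floor of 3 reads. Egr3 rose by 0.73 (SE 0.18, adjusted p = 0.0039) in YFP- over unstimulated cells and was lower by 9.99-fold in YFP+ than in YFP- cells (log2 difference -3.32, SE 0.18, adjusted p = 3.5e-07). Against unstimulated cells the YFP+ difference was -2.59 (SE 0.18, adjusted p = 5e-08). Both falls passed the test under all 30 alternatives, with log2 values from -3.50 to -2.91 against YFP- and from -2.78 to -2.21 against unstimulated cells.

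Nab2 (ENSMUSG00000025402; chromosome 10, 127660918 to 127668568, minus strand) encodes the corepressor known as inducible by Egr factors. The unstimulated libraries gave 4.46, 4.41, 4.25 and 4.18 log2 CPM. The YFP- libraries gave 6.13, 6.33, 5.60 and 5.97, and the YFP+ libraries 5.60, 5.98, 4.63 and 5.18. Every stimulated library was above every unstimulated one, and YFP+ m3 came closest to them. Nab2 rose by 1.68 (SE 0.24, adjusted p = 7.7e-05) in YFP- and by 1.02 (SE 0.24, adjusted p = 0.0023) in YFP+ over unstimulated cells. YFP+ less YFP- was -0.66 (95% interval -1.18 to -0.14, adjusted p = 0.069), lower in 4 of 4 label-matched pairs although the groups overlapped. This difference passed the test in 5 of 30 alternatives, and its adjusted p ran from 0.014 to 0.25 over the 30. It passed without YFP- m3 (-0.80, adjusted p = 0.041), without YFP+ m2 (-0.87, adjusted p = 0.014) and with quantile normalization (-0.49). It also passed with totals that leave out rRNA-like features (-0.67, adjusted p = 0.019) and with a replicate block (-0.66, adjusted p = 0.014). That block treats equal labels as matched, which the labels do not state. As for Egr2, m3 was lowest in both stimulated groups.

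Nab2 is the 1 gene of the 5 whose exons overlap other genes, all on the opposite strand. The shared exon bases were 40 with Stat6, 151 with Nemp1 and 1050 with the antisense gene Gm16229, of 2941 exon bases of Nab2. The strand setting of the counting is not given in the sources used here, so reads from these bases cannot be assigned to 1 gene. Gm16229 had 0 to 3 reads in any library. Stat6, the factor activated by IL-4, rose by 0.51 (adjusted p = 0.0039) in YFP- over unstimulated cells, while Nemp1, a nuclear envelope protein, fell by 0.78 (adjusted p = 0.00036) there and by 1.36 (adjusted p = 1.5e-06) in YFP+ cells.

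Nab1 (ENSMUSG00000002881; chromosome 1, 52457294 to 52500679, minus strand) encodes the other corepressor. It was at 5.23, 5.15, 5.22 and 5.38 log2 CPM in unstimulated, 5.80, 6.00, 5.48 and 5.91 in YFP-, and 5.62, 5.56, 5.28 and 5.48 in YFP+ libraries. The YFP- libraries lay above the unstimulated ones, and the YFP+ libraries overlapped both groups. Nab1 rose by 0.56 (SE 0.13, adjusted p = 0.0034) in YFP- cells. For YFP+ over unstimulated cells the difference was 0.24 (95% interval -0.05 to 0.53, adjusted p = 0.13), and it passed the test with centring on the sample median (0.36, adjusted p = 0.011) and with 2 other settings, its adjusted p running from 0.011 to 0.71. YFP+ less YFP- was -0.32 (adjusted p = 0.11; 0.028 to 0.75 over the alternatives), and it passed without YFP- m3 (-0.42, adjusted p = 0.028).

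**Figure D2:**
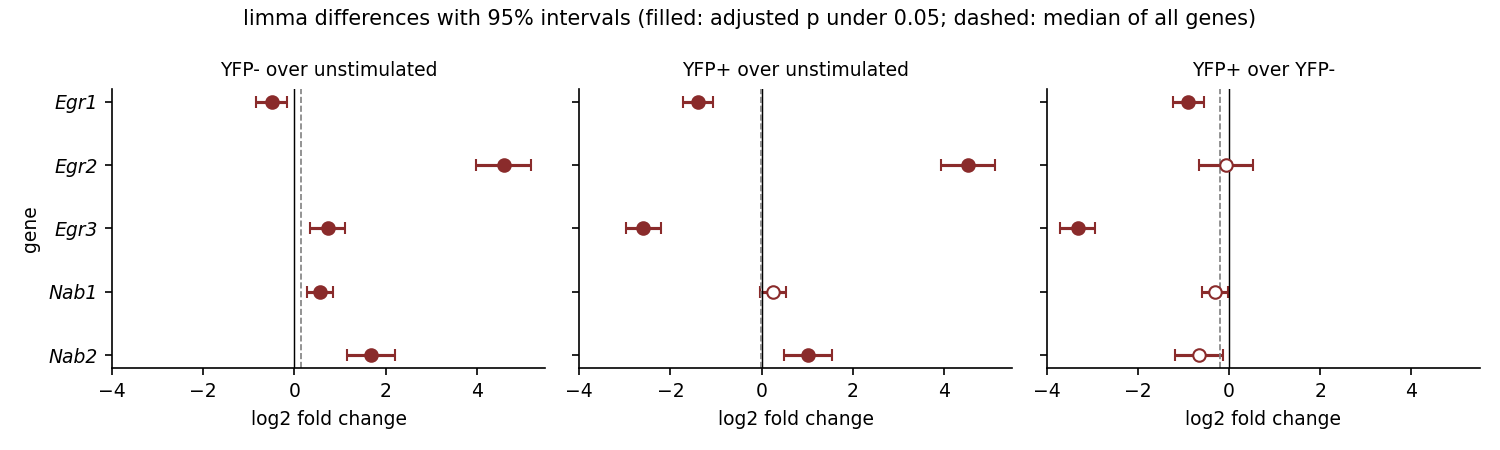
limma log2 fold changes (horizontal axis) with 95% intervals for the 5 genes in the 3 comparisons; filled points have an adjusted p under 0.05 and the dashed line is the median of all 12364 genes. The YFP+ over YFP- panel shows the fall of Egr3 by 3.32 beside an Egr2 difference of -0.06.

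The median over all genes was 0.14, -0.03 and -0.19 in log2 for YFP- over unstimulated, YFP+ over unstimulated and YFP+ over YFP-. Centring each sample on its median moved these to -0.00, 0.10 and 0.07. Among called genes the share that was higher was 59.1% for YFP- over unstimulated cells, and 49.3% with quantile normalization, 49.9% with centring and 47.1% with totals that leave out rRNA-like features. Of the genes called between YFP+ and YFP-, 15.1% were higher, and 44.9%, 50.2% and 37.8% with quantile normalization, centring and trimmed-mean scaling. With totals that leave out rRNA-like features this share was 14.1%. The direction of the Egr1, Egr3, Nab1 and Nab2 differences was the same under every scaling tried in all 3 comparisons. The Egr2 difference between YFP+ and YFP- cells changed sign with centring (0.20) and trimmed-mean scaling (0.09).

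To compare genes with one another, CPM was divided by the exon length of each gene in kilobases. For Nab2 all 2941 exon bases were used, including those shared with Stat6, Nemp1 and Gm16229. The part of these shared bases in the Nab2 levels, the Nab sums and the ratios below was not tested. In unstimulated cells the order was Egr1 at 23.3 ± 4.10 (SD, n = 4), Nab1 at 9.26 ± 0.623, Nab2 at 6.82 ± 0.613, Egr3 at 3.62 ± 0.733 and Egr2 at 3.26 ± 0.272 CPM per kb. The ranges of Egr3 and Egr2 overlapped, and those of the other neighbours did not. In YFP- cells Egr2 led with 83.9 ± 37.5 CPM per kb, followed by Nab2 at 22.2 ± 4.54, Egr1 at 16.5 ± 2.60, Nab1 at 13.7 ± 2.04 and Egr3 at 5.94 ± 0.709. Here the ranges of Nab2 and Egr1 overlapped, as did those of Egr1 and Nab1. In YFP+ cells Egr2 again led with 78.3 ± 27.2 CPM per kb, Nab2 (14.7 ± 5.58), Nab1 (11.0 ± 1.07) and Egr1 (8.83 ± 1.20) overlapped, and Egr3 was last at 0.596 ± 0.109.

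The make-up of the summed Egr1, Egr2 and Egr3 level therefore turned over. Egr1 made up 77.1% ± 2.22 (SD, n = 4) of it in unstimulated, 16.5% ± 4.07 in YFP- and 10.8% ± 3.81 in YFP+ cells. The share of Egr2 was 10.9% ± 1.34, 77.4% ± 6.18 and 88.4% ± 4.12, and that of Egr3 was 12.0% ± 1.48, 6.12% ± 2.18 and 0.749% ± 0.320. For Egr3 the 3 groups did not overlap, and for Egr1 and Egr2 only the stimulated groups overlapped. These shares come from within a library, so the scaling of the library cancels. They are a description with no test.

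**Figure D3:**
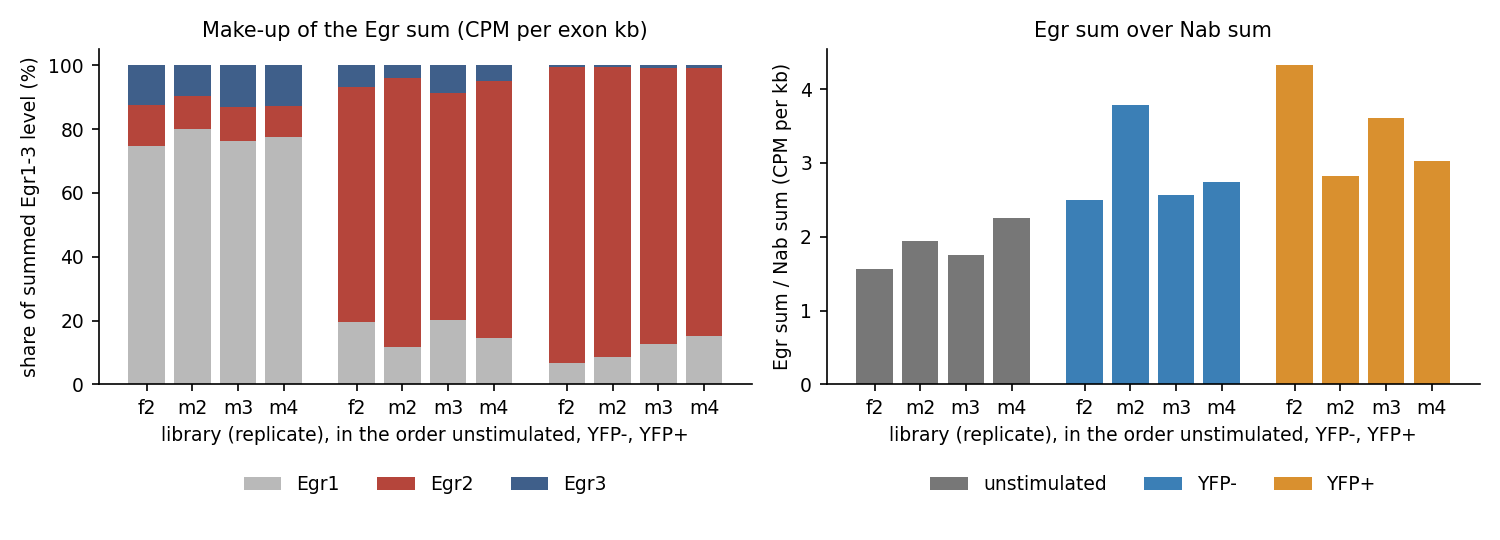
Left, percent of the summed Egr1-3 level (CPM per exon kilobase) from each gene in each of the 12 libraries; right, that sum divided by the sum of Nab1 and Nab2. Egr1 makes up 74.7 to 79.9% of the sum in the unstimulated libraries and Egr2 71.0 to 92.8% in the stimulated ones.

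The Egr sum was then set against the sum of the corepressors. The Egr sum was 30.2 ± 4.83, 106 ± 39.4 and 87.7 ± 26.5 CPM per kb in unstimulated, YFP- and YFP+ cells, and the Nab sum was 16.1 ± 0.454, 35.9 ± 6.42 and 25.6 ± 6.50. The ratio of the sums was 1.57, 1.94, 1.75 and 2.26 in the unstimulated, 2.50, 3.79, 2.57 and 2.74 in the YFP- and 4.32, 2.83, 3.61 and 3.02 in the YFP+ libraries. All stimulated ratios were above all unstimulated ones, and the stimulated groups overlapped. Within a library, the log2 CPM of Egr2 less that of Nab2 was -0.86 ± 0.19 without stimulation, 2.05 ± 0.36 in the YFP- group and 2.65 ± 0.39 in the YFP+ group. For Egr3 less Nab2 the same quantity was -0.35 ± 0.39, -1.30 ± 0.34 and -3.96 ± 0.80. Nab2 less Nab1 was -0.92 ± 0.21, 0.21 ± 0.14 and -0.14 ± 0.45, with no overlap between unstimulated and stimulated libraries.

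Of the relatives with a like DNA-binding domain, Egr4 and Wt1, neither passed the filter. Egr4 had 2 to 6 reads over the unstimulated, 17 to 48 over the YFP- and 15 to 25 over the YFP+ libraries, with no overlap between unstimulated and stimulated levels in CPM. Wt1 had 0 to 5 reads in any library.

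The genes that act before the Egr genes were examined as lists. Of SRF and its cofactors, 0 rose, 1 fell and 5 did not pass in YFP- over unstimulated cells, with a median of -0.34 where all genes had 0.14. In YFP+ over unstimulated cells 1 rose, 3 fell and 2 did not pass (median -0.48 against -0.03), and between YFP+ and YFP- cells 1 of 6 fell and 0 rose (median -0.11 against -0.19). Over all genes, 30.2% were called higher and 20.9% lower in the first comparison, 27.5% and 33.3% in the second, and 3.28% and 18.5% in the third. Mrtfa, an actin-regulated coactivator of SRF, fell by 1.18 in YFP- and by 1.28 in YFP+ cells (adjusted p = 1.4e-05 and 3e-06). The ternary complex factor Elk4 fell by 0.88 (adjusted p = 0.00051) and the coactivator Mrtfb by 0.72 (adjusted p = 0.0011) in YFP+ over unstimulated cells.

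Of 12 genes of the ERK cascade, 2 fell and 10 did not pass in YFP- over unstimulated cells (median 0.05), 2 rose and 2 fell in YFP+ over unstimulated cells (median 0.03), and 1 rose and 1 fell between YFP+ and YFP- (median -0.14). The shares of all genes called lower were 20.9%, 33.3% and 18.5%, and higher 30.2%, 27.5% and 3.28%. Mapk3, which encodes ERK1, had 71.6 ± 3.03 CPM (SD, n = 4) without stimulation, 25.8 ± 7.39 in the YFP- group and 10.3 ± 2.26 in the YFP+ group. It fell by 1.52 (adjusted p = 4.7e-05) in YFP-, by 2.82 (adjusted p = 8.1e-08) in YFP+ against unstimulated and by 1.30 (adjusted p = 0.00062) in YFP+ against YFP- cells. The GTPase gene Hras rose by 0.80 (adjusted p = 0.0021) in YFP+ over unstimulated cells. Its difference of 0.59 between YFP+ and YFP- cells (adjusted p = 0.039) was a call that 17 of 30 alternatives lost.

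Of 14 genes for subunits of the NuRD complex, which Nab proteins recruit, 2 rose and 5 fell in YFP- over unstimulated cells (median 0.05), 2 rose and 6 fell in YFP+ over unstimulated cells (median -0.39), and 3 fell with 0 rising between YFP+ and YFP- (median -0.26). Among all genes, 20.9%, 33.3% and 18.5% were called lower and 30.2%, 27.5% and 3.28% higher in these comparisons, so 3 of 14 lower in the last is near the share of all genes. The remodelling ATPase gene Chd3 fell by 0.88 (adjusted p = 0.0017) in YFP- and by 1.79 (adjusted p = 2.5e-06) in YFP+ against unstimulated cells, and by 0.91 (adjusted p = 0.004) in YFP+ against YFP- cells. Mta1, a scaffold subunit, fell by 1.11 and 1.12 (adjusted p = 7.2e-05 and 3.5e-05). Of the genes of the methyl-CpG-binding domain family, Mbd3 rose by 0.89 in both YFP- and YFP+ cells (adjusted p = 0.00019 and 0.00011), and Mbd2 fell by 0.66 and 0.93 (adjusted p = 0.0012 and 4.8e-05). The main ATPase gene Chd4 and the zinc finger subunit Gatad2b were lower in YFP+ than in YFP- cells (-0.35 and -0.52, adjusted p = 0.042 and 0.041), calls that 21 and 20 of 30 alternatives lost, as 21 did for Elk4 (-0.51, adjusted p = 0.046).

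A further list held 22 genes described as Egr targets in lymphocytes, some of them effector genes with many other regulators. Of these, 9 rose, 3 fell and 10 did not pass in YFP- over unstimulated cells (median 0.42), 8 rose and 8 fell in YFP+ over unstimulated cells (median 0.00), and 3 rose and 4 fell between YFP+ and YFP- (median -0.33). Against 30.2%, 27.5% and 3.28% of all genes called higher and 20.9%, 33.3% and 18.5% called lower, the falls in YFP+ cells are near the share of all genes in both comparisons. The chemokine gene Ccl1 had 32.2 ± 10.2 CPM without stimulation, 6840 ± 1253 in the YFP- group and 10837 ± 1145 in the YFP+ group, a rise of 7.76 and 8.44 in log2 (adjusted p = 8.7e-12 and 1.9e-12). Sema7a, a membrane-anchored semaphorin, had 0 to 17 reads over the unstimulated, 616 to 753 over the YFP- and 962 to 1284 over the YFP+ libraries. Nrn1, which encodes neuritin, had 0 to 9, 70 to 202 and 51 to 209 reads. Crabp2, a retinoic acid carrier, had 0 to 1 reads over the unstimulated, 65 to 118 over the YFP- and 296 to 679 over the YFP+ libraries, and was higher by 2.31 (SE 0.38, adjusted p = 0.00086) in YFP+ than in YFP- cells. With so few unstimulated reads, the fitted fold changes of these last 3 genes depend on the prior count and are not given.

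Some genes of that list were instead lower in the reporter-positive cells. Dgka, a diacylglycerol kinase described as an Egr2 target in T cell anergy, had 20.99 ± 4.37 CPM without stimulation, 11.2 ± 5.29 in the YFP- group and 2.42 ± 1.23 in the YFP+ group, and was lower by 2.26 (SE 0.37, adjusted p = 0.0008) in YFP+ than in YFP- cells. Zbtb16, which encodes the innate lymphocyte factor PLZF, was at 1.37 ± 0.410, 1.84 ± 0.316 and 0.619 ± 0.0879 CPM and was lower by 1.54 (SE 0.26, adjusted p = 0.00091) in YFP+ than in YFP- cells. The YFP+ libraries of Zbtb16, with 22 to 31 reads, did not overlap the other groups.

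**Figure D4:**
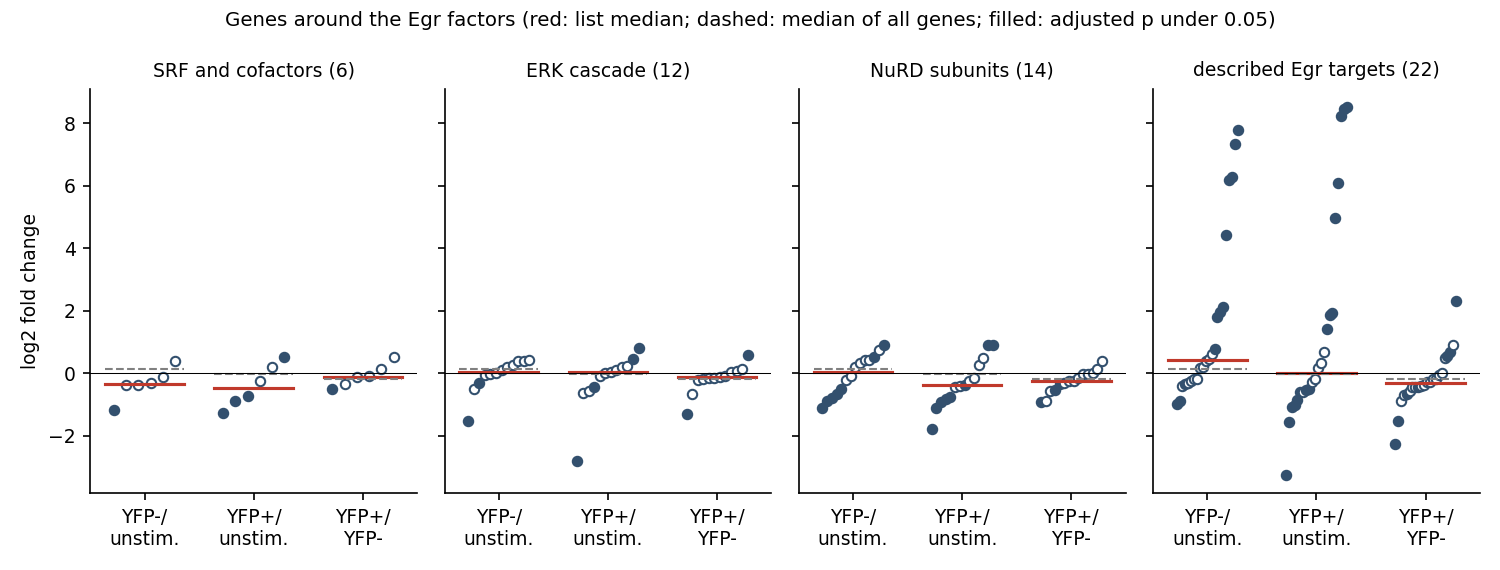
log2 fold change (vertical axis) of each tested gene of 4 lists in the 3 comparisons; filled points have an adjusted p under 0.05, red lines are list medians and dashed lines the median of all 12364 genes. Mapk3 is the lowest point of the ERK cascade, and Dgka the lowest of the described Egr targets in YFP+ over unstimulated cells, at -3.25; the heights of Sema7a, Nrn1 and Crabp2 over unstimulated cells depend on the prior count.

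For each gene, the 3 genes with the most similar pattern were found among 8069 candidates over the 12 samples, by the root mean square difference in log2 CPM after subtracting the unstimulated mean. For Egr2 these were Tagap, Hmox1 and Tnf, at 0.39, 0.51 and 0.52 log2 units. For Egr3 they were Ms4a4c, Ltb and Tcf7, at 0.38, 0.46 and 0.47, with mean levels 0.53, 0.37 and 0.84 above the unstimulated mean in YFP- cells and 2.16, 3.10 and 1.96 below it in YFP+ cells. Ltb encodes lymphotoxin beta and Tcf7 the transcription factor TCF-1. For Egr1 they were Rbl2, Cerk and Jak1 (0.15, 0.16 and 0.18), for Nab1 Manbal, Klrk1 and Sumo2 (0.08, 0.09 and 0.10), and for Nab2 Adora2a, Mvp and Pde12 (0.17, 0.21 and 0.21). These measures are descriptions across libraries that share depth and composition.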

How the data were processed

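A single table covers the 12 samples and holds moderated log2 CPM (reads of a gene relative to the library total, with a small prior), deposited by the authors and named so per the file headers. Reads were aligned with STAR 2.7.9a to GRCm38 and counted with featureCounts 2.0.3 from Subread after bcl2fastq, per the submitters' processing notes; the annotation used for counting is not given in the sources used here. Libraries were made with the SMARTer Ultra Low kit from 10 ng of RNA and read as 150-base pairs, per the labels' protocols. Of 55774 lines, 287 that repeat an identifier were dropped. Whole reads (within 0.001) were recovered for 100% of values and give the library totals and read numbers; PCR copies were not removed by any step named in the sources, so read floors cover counting error only.

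Genes that exceeded 0 log2 CPM in 4 or more samples were fitted in limma 3.58.1 (R 4.3.3) over all 12 samples, with 1 coefficient per group and an intensity trend. Benjamini-Hochberg adjustment ran over 12364 genes, and an adjusted p under 0.05 was called. Fold changes are on the moderated log2 scale, which understates changes of low genes. Tables and figures were made in Python 3.11.15 (pandas 2.3.3, numpy 2.4.6, matplotlib 3.10.9). Positions and exon lengths come from GENCODE M21, which holds 99.5% of the identifiers. The scripts were tested on simulated data.

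The 5 genes and the lists were chosen with earlier results of these data known. Genes named are the 5 members, genes overlapping them, all relatives, up to 3 called genes with the largest change per list and comparison, and the 3 most similar genes per member (mean log2 CPM of at least 2). Of the genes this rule names, 2 are not reported here. Alternatives covered the replicate block, filters, a pseudocount of 1 CPM, scalings, weights, thresholds and leaving out each replicate label or library. Leaving out labels for the shares and within-library differences was added after seeing the data.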

Additional observations from a re-analysis of the deposited data

Results flagged for a closer look

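In 4 of 114 groups of 4 values, 1 sample stood far from the other 3 by the Dixon criterion, which chance gives in about 1 of 20 groups. Egr3 in YFP- m4 was at 4.43 log2 CPM, while the other 3 YFP- libraries lay from 4.78 to 4.81. Egr2 less Nab2 in unstimulated m4 was -0.57 in log2, against -0.98 to -0.93 in the other unstimulated libraries. Egr3 less Egr1 in unstimulated m2 was -3.05, against -2.64 to -2.57. Crabp2 in unstimulated m4 was at -6.35 log2 CPM, where 0 to 1 reads stand behind every unstimulated library. Egr3 changed in opposite directions over the same unstimulated libraries, by 0.73 in YFP- and by -2.59 in YFP+ cells, and the difference of -3.32 between these had an adjusted p of 3.5e-07 in limma.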

How the results depend on the processing

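The rise of Egr2 and Nab2 in both stimulated groups, and the falls of Egr1 and Egr3 in YFP+ against unstimulated and of Egr3 against YFP- cells, kept their direction and their call in all 30 alternatives. Some alternatives cannot change a difference or its direction, only its call. These include the thresholds, the replicate block, the fit without intensity trend and leaving out a library of the group outside the comparison. Requiring a log2 fold change of at least 1 ended the calls of Egr1 (-0.50), Egr3 (0.73) and Nab1 (0.56) in YFP- over unstimulated and of Egr1 in YFP+ over YFP- cells (-0.89), and left 3239, 4547 and 1256 genes called in the 3 comparisons in place of 6321, 7522 and 2691. An adjusted p under 0.01 ended the call of Egr1 in YFP- over unstimulated cells (-0.50) and left 1466 genes called between YFP+ and YFP-. Nab1 in YFP+ over unstimulated cells passed with centring (0.36), trimmed-mean scaling (0.37) and sample quality weights (0.32). Between YFP+ and YFP- cells, Nab2 passed with quantile normalization (-0.49) and with totals that leave out rRNA-like features (-0.67), as did Nab1 with the latter (-0.32), and Egr2 changed sign with centring (0.20), trimmed-mean scaling (0.090) and sample quality weights (0.049). The causes were not tested.

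Leaving out 1 label or library gave -0.64 to -0.33 for Egr1 in YFP- over unstimulated cells. Between YFP+ and YFP- cells it gave -0.32 to 0.21 for Egr2 (higher in YFP+ without m2, m4, YFP- m2, YFP+ m3 or YFP+ m4), -0.42 to -0.25 for Nab1, -0.87 to -0.42 for Nab2, and 1571 to 3193 called genes (1571 without m2 and 1643 without m4). Deviations of label-matched samples correlated at 0.05 to 0.37 between YFP+ and YFP- libraries. The correlations were -0.04 to 0.38 between YFP+ and unstimulated and -0.06 to 0.10 between YFP- and unstimulated libraries. In this order, 3, 2 and 1 of 4 labels correlated best with their own. The main fit used no pairing because the labels do not state that equal labels mark 1 mouse, and these correlations do not settle it. With the replicate block the Nab2 difference between YFP+ and YFP- cells was -0.66 (adjusted p = 0.014 in limma). No other call of the 5 genes changed with the block. Within-library differences and shares moved by less than 1 SD when any label was left out. Leaving out 1 of 4 values cannot move a mean by 1 SD, so this does not measure how firm they are. Depth did not limit the 5 genes, each with over 100 reads in every library.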
